A study of Mus musculus with 18 samples.

Results

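The genes described here are 8 genes of CXCL12-abundant reticular cells (CARs) and of the adipogenic side of bone marrow (BM) stroma. They are the receptor gene Lepr, the transcription factor genes Pparg, Ebf3 and Foxc1, the lipase gene Lpl, and Adipoq, Apoe and Hp, which encode secreted proteins. The list was given as names and was read in the raw count matrix over every deposited stromal cluster from E16.5 to adult. All 8 were found among the 20275 genes of the matrix, and each had at least 50 unique molecular identifiers (UMIs, 1 per captured transcript) in every comparison of the adult with an earlier stage.

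BM cells of C57B6/J mice were profiled by single-cell RNA sequencing with antibody tags (CITE-Seq, which counts surface proteins through DNA-barcoded antibodies). Stromal cells were CD45-Ter119- cells sorted from adult mice, from newborns (P0) and from fetuses at E18.5 and E16.5, with 1 library per stage, and hematopoietic progenitors (HPs, lineage-negative Kit+ cells) of the same stages were profiled in 5 further libraries. The labels give no treatment and no transgene for any group, every stromal library was a pool of mice, and mice of both sexes were used. The fetal and newborn tissue was the skeleton without the bones of the head, whereas adult tissue was tibias, femurs, pelvic bones and spines, so stage goes together with the bones taken. Because each stage had 1 stromal library, no difference between stages was tested. The intervals given are exact 95% intervals of counting error only, which do not hold the variation between mice or between digestions.

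The 35219 stromal cells comprised 6267 adult cells and 14084, 6642 and 8226 cells of P0, E18.5 and E16.5 stroma, with between 91868751 and 194892476 UMIs per library and median depths of 11810 to 15590.5 UMIs per cell. The authors' table assigned these cells to 66 clusters, of which 65 held at least 50 cells. The codes of these clusters (such as F3i or P4) are used as deposited, with their leading genes, because the codes are not defined in the sources used here and several of the study's cluster names went against the leading genes of the code they matched best. Of the stromal cells, 276 (0.784%) carried a barcode sequence that also occurred in another stromal library, and without the cells that shared a barcode with any other library each level of the 8 genes was between 0.943 and 1.02 times its value.

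CARs are perivascular fibroblastic cells of the marrow that make CXCL12 and stem cell factor and on which hematopoietic stem cells and B cell progenitors depend. They express the leptin receptor and many adipocyte genes without storing lipid, and the transcription factors EBF3 and FOXC1 maintain their niche function. Leptin receptor-positive cells appear around birth and become the main source of new osteoblasts and marrow adipocytes in the adult, a process driven on the adipocyte side by PPARG.

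On the GRCm38.p6 assembly, in the RefSeq annotation, the 8 protein-coding genes lie on 6 chromosomes. Lepr, the receptor of the adipocyte hormone leptin, spans chr4:101717137-101815352 on the plus strand. Adipoq, which encodes the hormone adiponectin, spans chr16:23146536-23157968 on the plus strand. Lpl, which encodes lipoprotein lipase, and Hp, which encodes the hemoglobin-binding plasma protein haptoglobin, lie on the same chromosome, at chr8:68880555-68906932 (plus strand) and chr8:109575128-109579172 (minus strand). Pparg, the nuclear receptor that drives adipocyte differentiation, spans chr6:115360879-115490404 on the plus strand. Ebf3, a factor of the early B cell factor family, and Apoe, the apolipoprotein of lipid particles, lie on the minus strand at chr7:137193671-137322805 and chr7:19696244-19701310. Foxc1, a forkhead factor, spans chr13:31806646-31810635 on the plus strand.

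RefSeq promoter windows, 250 bases before the start and 50 after it, were at hand for 6 of the 8 genes, in 11 windows. The 250 bases before the start are shown for Adipoq and Foxc1, the genes with the highest and the lowest share of their adult UMIs in CARs. Capitals mark a GC box (GGGCGG on either strand). The Adipoq sequence is chr16:23146286-23146535 and the Foxc1 sequence is chr13:31806396-31806645, both on the plus strand.
Adipoq: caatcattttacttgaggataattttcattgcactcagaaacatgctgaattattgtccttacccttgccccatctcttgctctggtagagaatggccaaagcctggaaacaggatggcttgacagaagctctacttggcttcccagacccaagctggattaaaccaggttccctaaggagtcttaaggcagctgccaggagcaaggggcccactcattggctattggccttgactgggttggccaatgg
Foxc1: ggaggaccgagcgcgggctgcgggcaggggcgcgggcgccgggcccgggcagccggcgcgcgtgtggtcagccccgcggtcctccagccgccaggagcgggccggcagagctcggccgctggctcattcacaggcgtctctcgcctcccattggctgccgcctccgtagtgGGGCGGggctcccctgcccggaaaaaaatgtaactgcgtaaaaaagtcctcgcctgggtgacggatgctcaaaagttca
The 2 sequences differed in base composition, with 48.8% G or C before Adipoq and 70.8% before Foxc1. Of the 7 motifs searched on both strands, the window of Adipoq held none. That of Foxc1 held 1 GC box, which begins 79 bases before the start, and 35.7% of all 32851 promoter windows hold a GC box. The window of Ebf3 held 1 core of the EBF site (CCCNNGGG, in 13.7% of all windows) at 21 bases before the start, beside 3 GC boxes. Of the windows of Pparg, 2 each held the AGGTCA letters of nuclear receptor sites (16.3% of all windows), at 28 and at 9 bases before the start, and the third held 2 C/EBP matches (TTGCNNAA, 10.8%). For Lepr, 1 of 2 windows held a C/EBP match, at 19 bases after the start. For Apoe, 2 of 3 windows held an EBF core, and in 1 of these it stood beside a forkhead match (GTAAACA, in 3.65% of all windows). The PPAR double site, AGGTCANAGGTCA (0.0396% of all windows), was not among the matches, and TATAAA (13.6%) was matched at Pparg and Apoe. These matches describe letters in a window and not sites of binding.

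Over whole stroma, Adipoq and Hp stood near 0 before adulthood and high in the adult, Lepr, Lpl, Pparg and Apoe were present at every stage and higher in the adult, and the factor genes Foxc1 and Ebf3 differed least. Levels are given in CPM, the UMIs of the gene scaled by all UMIs of the library, not divided by transcript length, since each captured transcript gives its UMI at the 3′ end.

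Adipoq had 6809 UMIs in the adult library, against 64 at P0, 5 at E18.5 and 14 at E16.5, which are levels of 74.1, 0.328, 0.0445 and 0.120 CPM. The adult level was 226 times that of P0 (interval 177 to 293). Hp stood at 197, 1.04, 0.649 and 0.624 CPM in the same order, and the adult level was 189 times that of P0 (interval 165 to 218). For both genes the adult interval lay above all 3 perinatal ones, and among the 16095 genes compared between adult and P0 their ratios ranked 23rd and 24th.

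Lepr measured 47.7 CPM in the adult, 11.5 at P0, 8.77 at E18.5 and 8.28 at E16.5, and the adult level was 4.16 times the P0 level (interval 3.95 to 4.38). Apoe measured 507, 125, 57.1 and 55.8 CPM in this order, so that it was already higher at P0 than at E18.5 (2.19-fold, interval 2.13 to 2.25) and 4.05-fold higher again in the adult (interval 3.99 to 4.12). Lpl measured 159, 69.1, 41.1 and 27.4 CPM, with each stage above the earlier ones. These 3 genes, a receptor, an apolipoprotein and a lipase, were therefore present in fetal stroma at levels far from the 0.120 and 0.624 CPM of Adipoq and Hp.

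Pparg stood at 8.29 CPM in the adult and at 2.28 (P0), 2.73 (E18.5) and 2.08 CPM (E16.5), and its adult level was 3.63 times that of P0 (interval 3.23 to 4.09). Foxc1 measured 107, 59.3, 58.5 and 46.8 CPM in this order, and its E18.5 and P0 levels did not differ beyond counting error (ratio 1.01, interval 0.984 to 1.05). Ebf3 measured 29.7, 18.5, 18.7 and 28.0 CPM, and its adult level was close to that of E16.5 (ratio 1.06, interval 1.01 to 1.12).

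Against E16.5 stroma, 5 of the 8 genes were at least 4-fold higher in the adult (Lepr, Adipoq, Lpl, Apoe and Hp), beside 9.91% of all 15628 genes compared. Against E18.5 the count was 4 (Lepr, Adipoq, Apoe and Hp) beside 8.66% of genes, and against P0 it was the same 4 genes beside 6.39%. None of the 8 was at least 4-fold lower in the adult, where 5.57%, 3.39% and 4.5% of genes were lower than in the 3 perinatal libraries in this order. The counts rest on ratios near the limit: Pparg against E16.5 stood at 3.99, Apoe against P0 at 4.05 and Lepr against P0 at 4.16. Over all genes the median ratio of adult to P0 was 1.14, and with TMM scaling, or with mitochondrial, ribosomal protein and globin genes and Gm42418 left out of the totals, Lepr and Apoe came below 4-fold against P0, which leaves Adipoq and Hp.

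**Figure D1:**
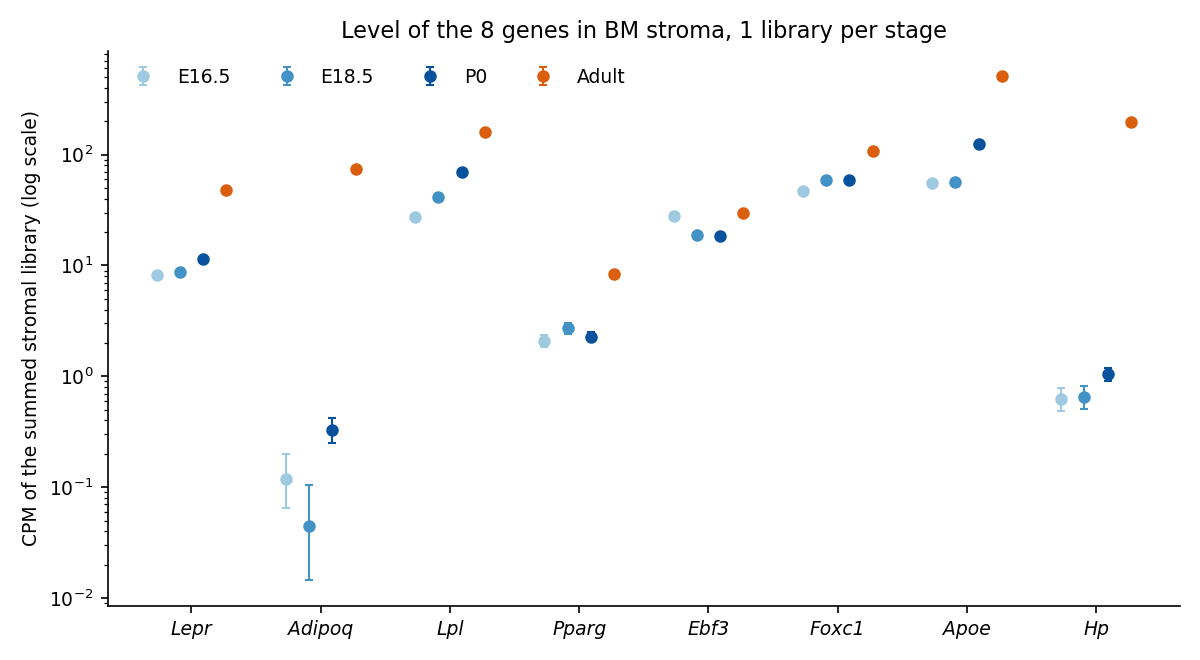
Level of each of the 8 genes in CPM (log axis) in the stromal library of each stage; points are the summed library and bars its exact 95% counting interval, which is narrower than the point for most genes. Adipoq and Hp sit at or under about 1 CPM at the 3 perinatal stages and at 74.1 and 197 CPM in the adult, whereas Ebf3 and Foxc1 span less than 3-fold.

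In the adult, 7 of the 8 genes were highest in 1 cluster, coded CARs, of 359 cells (5.73% of the adult stromal library, median depth 7185 UMIs), as were 12.0% of the 14069 genes with at least 50 adult UMIs. The label was set beside CAR markers without the 8 genes. The authors named clusters from marker genes in these same cells, so the marker levels describe the cluster and are no independent check. All 9 remaining markers were detected and summed to 28049 CPM in CARs, the highest of the adult clusters, of which the lowest stood at 93.1 CPM. Cxcl12 alone measured 20242 CPM there, Vcam1 1461 CPM and Kitl, which encodes stem cell factor, 1005 CPM. The cluster's 10 leading genes by fold were Kng1, C6, Adipoq, Il1rn, Gdpd2, Hp, Mmp9, Slco1a4, Cbln1 and Kng2. Lists of other cells stood on both sides of their level over all adult stroma, given in brackets. The 8 genes of the blood cell list summed to 82.7 CPM (97.3) with Ptprc at 0, and the macrophage list to 9.67 CPM (18.4). The mature adipocyte list summed to 96.3 CPM (41.7), with 4 of its 5 measured genes detected, and most of the sum in CARs came from Car3 alone. The neutrophil list summed to 17.3 CPM (4.95), the highest of the adult clusters, and the erythroid list to 433 CPM (173). The osteolineage list summed to 18008 CPM (14136) and the sinusoidal list, which holds Vcam1, to 1780 CPM (378). The remaining lists, such as fibroblast, chondrocyte and endothelial, stood lower in CARs than over all adult stroma.

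Hp measured 5646 CPM in CARs against 13.0 CPM over all other adult stromal cells (435-fold), and 93.6% of all adult Hp UMIs came from this cluster. Adipoq had 2177 CPM in CARs against 3.12 CPM elsewhere (698-fold), and 95.9% of its UMIs came from CARs. The next clusters stood far lower: Adipoq measured 24.3 CPM in SECs (sinusoidal endothelial genes Stab2 and Mrc1) and Hp 58.9 CPM in P4 (smooth muscle genes such as Myh11). By UMIs, both genes were thus close to restricted to CARs at this depth. By cells with at least 1 UMI they were less so. CARs made up 78.1% of the 401 adult cells with Adipoq and 56.7% of the 615 with Hp, of which 93 lay in F8.

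Lepr, Lpl and Ebf3 were enriched in CARs to a like degree and less exclusively. Lepr measured 794 CPM in CARs against 22.5 CPM elsewhere (35.3-fold), Lpl 2703 against 72.8 CPM (37.1-fold) and Ebf3 499.6 against 13.8 CPM (36.2-fold). CARs held 54.3% of the adult Lepr UMIs, 55.6% of the Lpl UMIs and 55.0% of the Ebf3 UMIs. The remainder lay in different places. Lepr was next highest in the fibroblast cluster F10, led by Npy, at 51.2 CPM (interval 47.0 to 55.6), which did not differ beyond counting error from 49.3 CPM in F12 (interval 40.7 to 59.2), a cluster with the tendon gene Kera. Lpl was next highest in P4 at 235 CPM and in F8 (Ccl11 and Inmt) at 224 CPM, and Ebf3 in AECs, an endothelial cluster, at 56.9 CPM.

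Apoe and Foxc1 were highest in CARs but spread over adult stroma. Apoe measured 3026 CPM in CARs and 422 CPM elsewhere (7.18-fold), and the cartilage cluster C9 reached 1313 CPM and SECs 991 CPM. Only 19.5% of adult Apoe UMIs came from CARs. Foxc1 measured 413 CPM in CARs and 96.9 CPM elsewhere (4.26-fold), with 158 CPM in C9 and 144 CPM in C10, and 12.6% of its UMIs came from CARs. In the adult muscle cluster P1, led by Myf5 and Pax7, Foxc1 had 1 UMI in 122 cells.

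Pparg was the exception. It was highest in SECs at 178 CPM (interval 159.7 to 199), above CARs at 75.7 CPM (interval 66.1 to 86.2), a 2.36-fold difference (interval 1.99 to 2.81). It was next highest in P4 at 34.2 CPM and in AECs at 29.1 CPM. With cells holding at least 3 UMIs of the blood cell list left out, SECs lost 178 of their 194 cells and, under the minimum of 50 cells, were no longer ranked, and Pparg over adult stroma measured 4.66 CPM. In SECs the UMIs of that list came from genes such as Srgn (1073 UMIs) and Fcer1g (405 UMIs), while Ptprc, the pan-leukocyte gene, was at 0.

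Within CARs most genes were found in nearly every cell. Hp was detected in 97.2% of the 359 cells, Apoe in 95.3%, Lpl in 91.6%, Lepr in 91.4%, Ebf3 in 90.8%, Foxc1 in 89.97% and Adipoq in 87.2%. Pparg was detected in 38.2% (interval 33.1 to 43.4). For comparison, the endothelial clusters of the adult (594 cells, median 5331.5 UMIs) held Adipoq in 3.54% of cells, Hp in 3.37%, Lepr in 14.1% and Ebf3 in 20.9%. Thinned to 1000 UMIs per cell, the shares were 72.7% in CARs and 0.515% in endothelial clusters for Adipoq, 86.6% and 0.858% for Hp, 52.6% and 3.95% for Lepr, and 43.2% and 4.63% for Ebf3. UMIs per cell were spread: the median CARs cell held 32 Hp UMIs (quartiles 13 and 64.5, highest 454), 14 Adipoq UMIs (quartiles 6 and 25) and 6 Lepr UMIs (quartiles 3 and 9).

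The ratio of Hp to Adipoq UMIs varied among adult clusters. There were 2.59 Hp UMIs per Adipoq UMI in CARs, 2.5 in F13 (from 10 and 4 UMIs), 1.80 in SECs and 1.62 in C10, against 8.97 in F8 and 12.0 in Osteo, the cluster of osteoblast genes Bglap and Ifitm5. In the muscle cluster P1 the ratio was 0.444, from 8 Hp and 18 Adipoq UMIs. How much of the low levels outside CARs was free RNA was not tested.

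**Figure D2:**
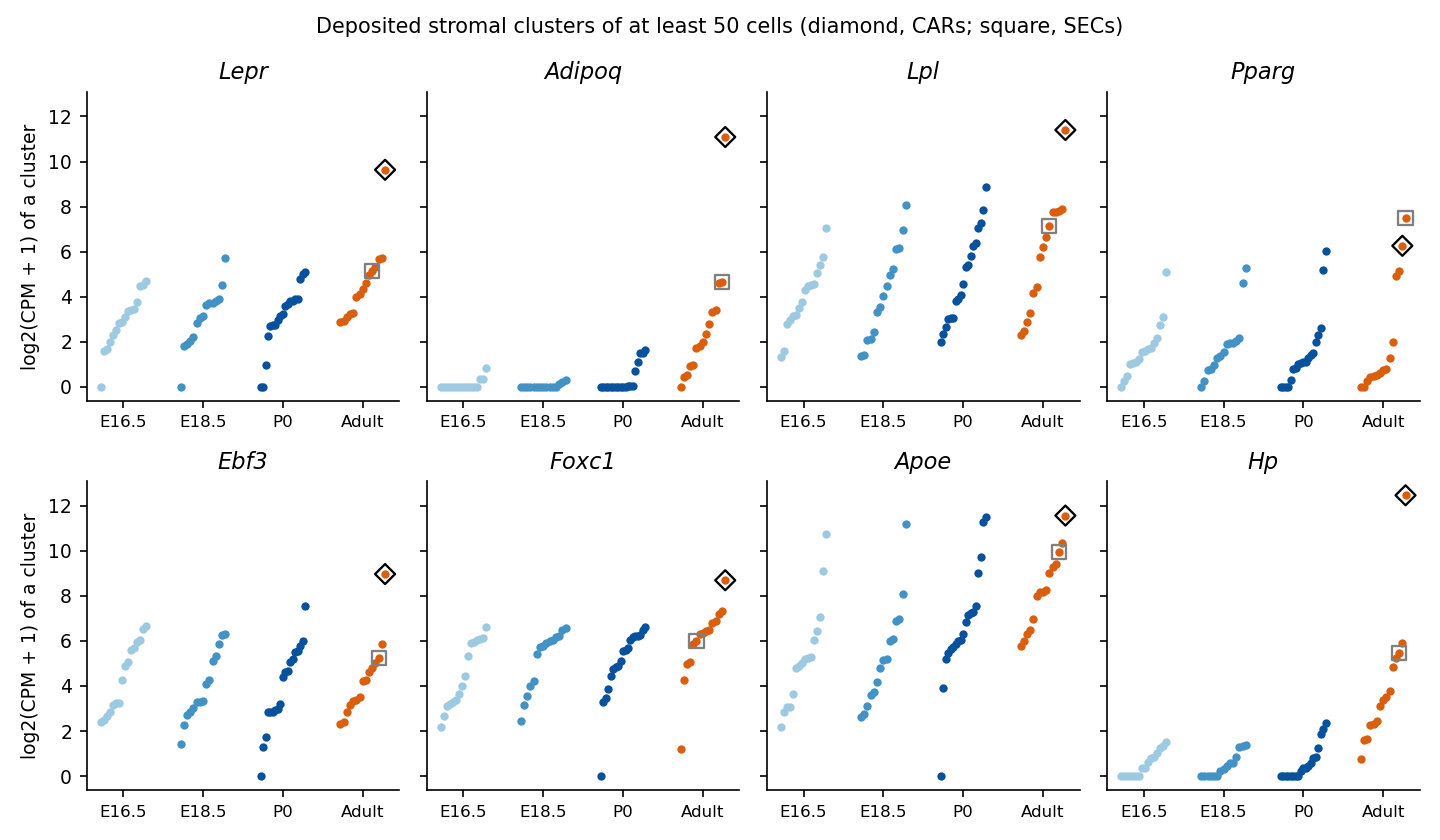
Level of each of the 8 genes in every stromal cluster of at least 50 cells, in log2(CPM + 1), by stage; each point is 1 cluster, with adult CARs drawn as a diamond and SECs as a square. The CARs diamond is the highest adult point for 7 genes, SECs is highest for Pparg, and the perinatal points of Adipoq and Hp lie near 0.

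Part of the higher adult level of these genes came with the CARs cluster, which had no counterpart at perinatal stages by its code. Without the 359 CARs cells, adult stroma measured 3.12 CPM of Adipoq and 13.0 CPM of Hp, still 9.49-fold and 12.5-fold above P0. Lepr then measured 22.5 CPM (1.96-fold), Apoe 422 CPM (3.37-fold), Pparg 6.02 CPM (2.64-fold) and Foxc1 96.9 CPM (1.63-fold). Lpl measured 72.8 CPM, 1.05 times the P0 level (interval 1.02 to 1.08), and Ebf3 13.8 CPM, 0.748 times the P0 level (interval 0.701 to 0.798). The number of the 8 genes at least 4-fold higher in the adult was then 3 against E16.5, 3 against E18.5 and 2 against P0, with Adipoq and Hp among them each time, beside 9.52%, 8.21% and 6.02% of all genes.

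Before adulthood no cluster was highest for more than 3 of the 8 genes at any stage. None of the 8 reached its level in adult CARs, and the counting intervals met those of CARs only for Apoe and Pparg in the P0 cluster UD4. Lepr was highest at E16.5 in F2 (24.8 CPM, interval 21.3 to 28.6), which did not differ from F4 (21.7 CPM) beyond counting error. At E18.5 it was highest in F3ii (52.5 CPM, interval 44.3 to 61.8), a cluster of 177 cells led by posterior Hox genes, 2.39-fold above the next. At P0 it was highest in endothelial cells, ECs (33.6 CPM), and in the tendon cluster F5 (30.9 CPM), which did not differ from each other beyond counting error. The cluster with the highest Lepr level thus differed between stages. Endothelial clusters had been taken as cells that should lack Lepr and Ebf3, and the levels measured in them mean that their shares are no clean background for these genes.

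Lpl had its highest perinatal levels in fibroblast clusters, though at P0 the pericyte cluster P2 measured 132 CPM and ECs 82.7 CPM. It was highest in F1 at E16.5 (130 CPM), in F3i at E18.5 (265 CPM) and in F3i at P0 (463 CPM), between 2.04-fold and 2.46-fold above the next cluster. F3i at E18.5 was led by the fibroblast genes Mfap5, Dpp4 and Clec3b. Within F3i, Lpl was 1.75-fold higher at P0 than at E18.5 (interval 1.67 to 1.82), although F3i was led at P0 by other genes, such as Stra6 and Tceal7, and shared 1 of its 10 leading genes, Gpr83, between these stages. Chondrocyte clusters had been taken as cells that should lack Lpl, and summed per stage they measured 8.05 to 10.0 CPM of it at the 4 stages. Single clusters differed, with Lpl at 21.0 CPM in C5 at E16.5, and at 14.0 CPM in C5 and 2.96 CPM in C2ii at P0. Ebf3 was highest in the fibroblast clusters F3 (101.2 CPM) and F1 (92.3 CPM) at E16.5 and, at E18.5, in F3i (77.9 CPM) and ECs (75.5 CPM), and neither pair differed beyond counting error. At P0 its highest level, 185 CPM, lay in UD2, a cluster led by the neural genes Neurod1 and Nhlh1 with a median of only 474 UMIs per cell. With cells under 1000 UMIs left out, F3i was highest (62.2 CPM).

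Foxc1 had its perinatal maximum in cartilage and was found in all clusters of at least 50 cells but 1. The hypertrophic cluster C5, led by Col10a1 and Ihh, measured 95.9 CPM at P0, 94.1 at E18.5 and 97.4 at E16.5. Foxc1 did not differ in C5 between E18.5 and P0 beyond counting error (ratio 1.02, interval 0.951 to 1.09). In muscle clusters, taken as cells that should lack Foxc1, it measured 13.7 CPM at P0, 10.7 at E18.5 and 6.84 at E16.5.

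Apoe was highest in the cluster coded Schwann at E16.5 (1736 CPM) and at E18.5 (2349 CPM). At P0 UD4, led by Lcn2 and Igfbp2, stood at 2917 CPM and Schwann at 2445 CPM. These levels approached the 3026 CPM of adult CARs. Summed over the chondrocyte clusters of a stage, Apoe measured 571 CPM in the adult, 84.6 at P0, 27.9 at E18.5 and 13.7 at E16.5. Much of the P0 and E18.5 sums lay in C2ii, with 5647 of 9479 UMIs at P0 and 1479 of 2208 at E18.5. C2ii measured 523 CPM at P0 and 272 CPM at E18.5 (1.92-fold, interval 1.81 to 2.04). Cluster C1, present at both E16.5 and P0, differed 5.36-fold (interval 4.54 to 6.35), and C5 measured 6.23 CPM at E16.5, 5.08 at E18.5 (0.815-fold, interval 0.581 to 1.14) and 14.2 at P0 (2.81-fold over E18.5, interval 2.15 to 3.72). Muscle cluster P1 went from 34.5 CPM at E18.5 to 623 CPM in the adult (18.0-fold, interval 15.0 to 21.8). Adipoq and Hp were higher in adult P1 too, from 18 and 8 UMIs against 1 UMI each at E18.5, and how much of the Apoe in adult P1 was free RNA was not tested. In F2 Apoe was 2.12-fold higher at E18.5 than at E16.5 (interval 1.83 to 2.47) and then 0.643 times that level at P0 (interval 0.575 to 0.719). The leading genes of F2 included the tendon genes Tnmd and Kera at E18.5 but not at E16.5 or P0, so this code too differed in content between stages.

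Pparg was highest in UD1 at E16.5 (32.8 CPM), a cluster of 62 cells with neural genes such as Tubb3, in ECs at E18.5 (37.2 CPM) and in UD4 at P0 (64.0 CPM), followed there by ECs (35.6 CPM). At E16.5 ECs measured 5.75 CPM, from 5 UMIs. F3ii, in which Lepr was highest at E18.5, also held Pparg at 23.7 CPM there. The cluster with the same code at P0 measured 0.158 times the Lepr level (interval 0.105 to 0.232), 0.127 times the Pparg level (interval 0.0626 to 0.238) and 5.80 times the Foxc1 level (interval 3.72 to 9.48) of E18.5. Its leading genes at P0 were Cxcl2, Cxcl10 and Aldh1a2, so the code did not carry the same leading genes at both stages.

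The 8 genes were also counted within single cells. Each cell was thinned to 1000 UMIs, so that depth was equal, and cells with fewer UMIs were left out, which were 33 in the adult, 1471 at P0, 168 at E18.5 and 32 at E16.5. At least 4 of the 8 genes were found in 295 of 6234 adult cells (4.73%, interval 4.22 to 5.29) and in 5 of 12613 cells at P0 (0.0396%, interval 0.0129 to 0.0925). They were found in 0 of 6474 cells at E18.5, which allows a share of up to 0.0570%, and in 0 of 8194 at E16.5 (up to 0.0450%). Of these adult cells 285 were CARs, which is 79.4% of the CARs cells. The median CARs cell held 5 of the 8 genes, and the median over all adult stroma was 0. Of the 5 cells at P0, 3 lay in F7, a fibroblast cluster led by Sult1e1 with Ly6a and Pi16, 1 in F2 and 1 in CF2. Another thinning seed, tried after seeing the data, gave 3 cells at P0 and leaving out cells with 3 UMIs of the blood cell list gave 2. The cells that were left were thinned anew, so this drop does not count cells left out, and at E18.5 the same step gave 1 cell. Without thinning the shares lay closer together, at 11.0% of adult cells and 2.23%, 2.09% and 1.12% of cells at P0, E18.5 and E16.5.

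**Figure D3:**
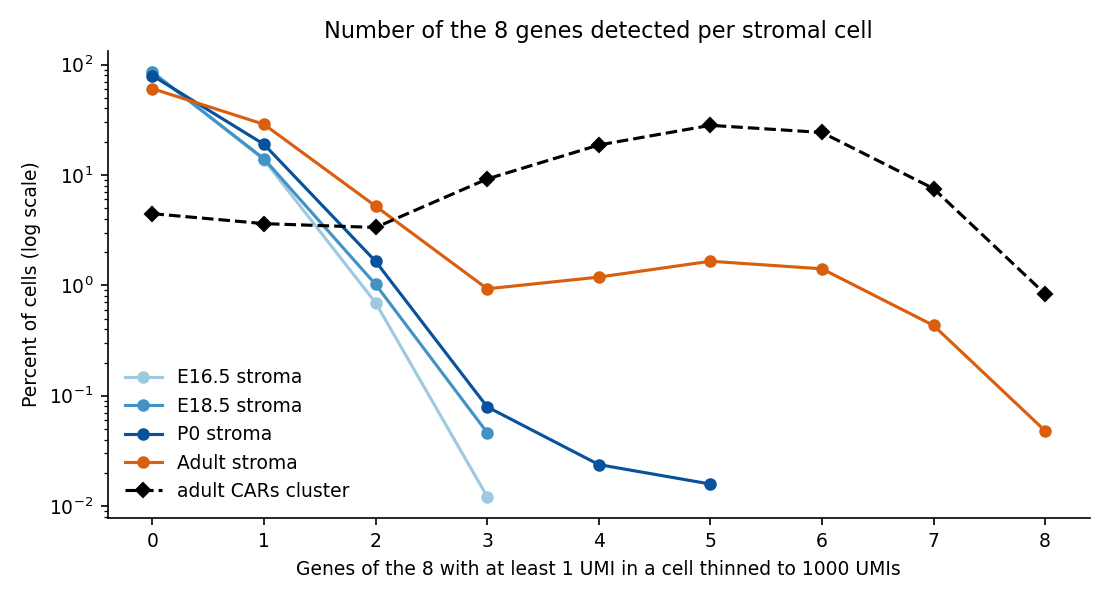
Percent of stromal cells (log axis) by the number of the 8 genes with at least 1 UMI after thinning to 1000 UMIs, for the 4 stages and for adult CARs alone; numbers that no cell had are not drawn. Perinatal curves end at 3 to 5 genes, whereas adult CARs peak at 5 genes and reach 8.

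In thinned adult cells, Lpl and Apoe were the pair found together in most cells (357), followed by Apoe and Hp (296). Of 273 cells with Adipoq, 96.0% also held Hp, against 5.69% of all adult cells, 85.0% held Lpl against 11.3%, and 56.0% held Lepr against 5.21%. Of 355 cells with Hp, 77.5% held Lpl and 73.8% Adipoq. Of 325 cells with Lepr, 47.1% held Adipoq and 55.4% held Hp. Of 595 cells with Foxc1, 16.6% held Adipoq, against 4.38% of all adult cells. Unthinned, Lepr and Ebf3 were found together in 7.56% of adult cells and in 1.97% to 2.13% of the cells of a perinatal library. Of these cells in the adult, 65.2% were CARs, while at P0 the largest group lay in F7.

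The few perinatal cells with Adipoq were looked at 1 by 1, by a minimum of 2 Adipoq UMIs that was chosen after the values had been seen. There were 9 such cells, 7 at P0 and 1 at each fetal stage, and the 7 held 50 of the 64 Adipoq UMIs of P0. None of the 9 carried a barcode found in another library, and none had a Ptprc UMI. They were sorted into 2 kinds by pairs of genes, Lepr with Hp or Fabp4 with Car3, which were picked after the values had been seen. In 4 cells, all at P0 (3 in F7 and 1 in F2), Adipoq came with Lepr and Hp. These 4 cells held 15, 5, 4 and 2 Adipoq UMIs, 8, 3, 7 and 2 Lepr UMIs, and 25, 5, 6 and 18 Hp UMIs. They also held 109, 85, 142 and 25 Cxcl12 UMIs, 13, 1, 10 and 10 Kitl UMIs, and 9, 7, 15 and 5 Vcam1 UMIs. From 6 to 8 of the 8 genes were present in each, and Plin1, Car3 and Retn were at 0, while Fabp4 had 0, 10, 0 and 3 UMIs. Summed over the 4 cells (44006 UMIs), Cxcl12 measured 8203 CPM (interval 7379 to 9095), Hp 1227 CPM (interval 922 to 1601) and Lepr 454 CPM (interval 278 to 702). In adult CARs the same genes stood at 20242, 5646 and 794 CPM. The 4 cells were picked by their Adipoq, Lepr and Hp UMIs, whereas CARs cells were not. Their Hp and Lepr levels are therefore high by choice, and the intervals do not allow for it.

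In the other kind, again 4 cells (3 in F3i at P0 and 1 in C5 at E16.5), Adipoq came with the adipocyte genes Fabp4, a fatty acid carrier, and Car3, a carbonic anhydrase of fat and muscle. These cells held 16, 4, 4 and 11 Adipoq UMIs, 85, 35, 54 and 38 Fabp4 UMIs, and 131, 8, 4 and 99 Car3 UMIs, while Lepr, Hp and Foxc1 were at 0 in every one. Pparg was present in all 4, with 1, 2, 13 and 1 UMIs. Cxcl12 was present in 3 of the 4, at 108 CPM summed over all 4. The 3 cells in F3i held 35093, 26633 and 30494 UMIs, against a median of 14389.5 in that cluster. The cell in C5 held 19169 UMIs, against a median of 21987.5. Whether any of these cells was a doublet was not tested. The remaining cell, in F3i at E18.5, held 2 Adipoq UMIs without Lepr, Hp or Car3, and no cell was of both kinds. In the adult, 331 cells met the same minimum, of which 305 were CARs. Of these 331 cells, 94.6% held Lepr and 99.4% Hp, whereas Plin1 was found in 0.604% and Car3 in 1.51%.

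**Figure D4:**
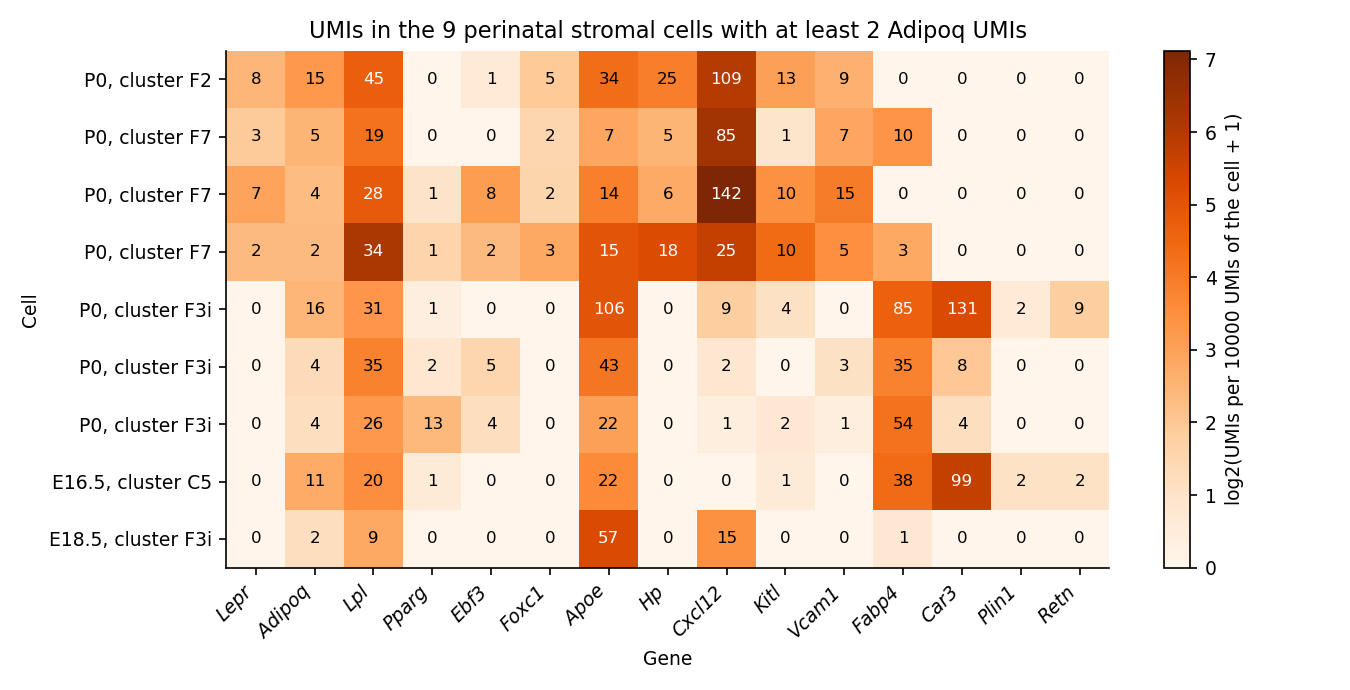
UMIs of the 8 genes and of 7 others (columns) in each of the 9 perinatal cells with at least 2 Adipoq UMIs (rows, with stage and cluster code); numbers are UMIs, and color is their log2 value scaled to the UMIs of the cell. The upper 4 rows carry Lepr, Hp, Cxcl12 and Kitl without Car3 or Plin1, and the 4 rows under them carry Fabp4 and Car3 without Lepr or Hp. Of these lower 4 rows, 3 also carry Cxcl12 and 3 carry Kitl, at low counts.

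The genes that work beside these 8 were followed by lists. Of 16 niche factor genes of CARs, 10 were at least 4-fold higher in the adult than at P0, 11 than at E18.5 and 10 than at E16.5, beside 6.39%, 8.66% and 9.91% of all genes, and 0 were lower, beside 4.5%, 3.39% and 5.57%. In CARs 15 of the 16 were at least 4-fold above the other adult cells, with a median of 17.1-fold, beside 5.14% of all 14069 genes compared and a median of 1.13. The list shares genes such as Cxcl12, Kitl and Vcam1 with the markers of CARs, and the paper defines CARs by high Cxcl12 and Kitl. Enrichment of this list in CARs was therefore given in advance and describes the cluster only. The genes with the highest level in CARs were Cxcl12 (20242 CPM), Spp1, which encodes osteopontin (9203 CPM), and Igfbp4 (5809 CPM) and Igfbp5 (5754 CPM), which encode insulin-like growth factor binding proteins.

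The 13 skeletal transcription factor genes compared beside Ebf3 and Foxc1 had 1 at least 4-fold higher in the adult than at P0 and at E16.5 (Sp7, the osteoblast factor osterix, both times) and 0 against E18.5, beside 6.39%, 9.91% and 8.66% of all genes compared. In CARs 5 of the 13 were at least 4-fold above other adult cells, beside 5.14% of all genes. The highest levels were those of Ebf1, a relative of Ebf3, at 966 CPM, Runx1 at 842 CPM, Zeb2 at 699.9 CPM and Prrx1, a limb mesenchyme factor, at 341 CPM. Ebf2, a further relative, stood at 39.0 CPM in CARs and 36.4 CPM over all adult stroma. Foxc2, the close relative of Foxc1, stood at 24.7 CPM in CARs (2.05-fold above other adult cells). Of these 3 Ebf genes, Ebf3 was thus the most enriched in CARs, at 36.2-fold against 4.27-fold for Ebf1 and 1.07-fold for Ebf2.

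Of 13 adipocyte differentiation factors beside Pparg, 2 were at least 4-fold higher in the adult than at E16.5 (Cebpa and Nr1h3), 1 against E18.5 (Nr1h3) and 1 against P0 (Cebpa), and Ppargc1a was lower than at P0. Over all genes the shares at least 4-fold higher were 9.91%, 8.66% and 6.39%, and the shares at least 4-fold lower were 5.57%, 3.39% and 4.5%. In CARs 2 of the 13 were at least 4-fold above other adult cells, beside 5.14% of all genes. Cebpd (961 CPM), Cebpb (821 CPM) and Cebpa (201 CPM, 19.98-fold above other adult cells), all C/EBP factors of adipocyte differentiation, had high levels there. Only 1 of the 13 factors had its highest adult level in CARs, so a high level there does not mean enrichment. Of 19 genes of lipid storage and adipokines with enough UMIs in the adult, 0 were at least 4-fold higher in CARs and 1 was lower. Over all 14069 genes compared, 5.14% were higher and 1484 genes lower, and the median ratio of the 19 was 0.669. Fabp4 measured 165 CPM in CARs (0.409 times the other adult cells), Rbp4 117 CPM and Car3 79.99 CPM. Plin1, which coats the lipid droplet, had 0.667 CPM in CARs, from 2 UMIs. In whole stroma 8 of 21 genes of this list were at least 4-fold higher in the adult than at E16.5, 6 of 21 against E18.5 and 5 of 23 against P0, beside the same shares of all genes, with Plin4 and Cfd among those higher each time and Nnat lower each time. Of 4 thermogenic adipocyte genes compared, 1 (Dio2) was higher against each stage, beside the same shares of all genes. In CARs 0 of 3 were at least 4-fold higher and 1 was lower, beside 5.14% higher and 1484 genes lower among the 14069 genes compared.

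Among partners of the 8 genes, Angptl4, a secreted inhibitor of lipoprotein lipase, was 13.4-fold higher in CARs than in other adult cells (343 CPM). It was the only 1 of 13 partner genes at least 4-fold higher there, and 3 were lower. Over all 14069 genes compared, 5.14% were higher and 1484 genes lower. Gpihbp1, which anchors the lipase on capillaries, was nearly absent from CARs (1.33 CPM, 0.0290 times the other cells) and highest in SECs. Socs3, a target and inhibitor of leptin receptor signaling, measured 1403 CPM in CARs (3.22-fold), and Stat3, its signal transducer, 203 CPM (1.48-fold). In whole stroma 3 of 15 partner genes were at least 4-fold higher in the adult than at E16.5 (Cdh13, Gpihbp1 and Angptl4), the same 3 against E18.5, and 2 against P0 (Cdh13 and Angptl4). Over all genes 9.91%, 8.66% and 6.39% were called higher in these comparisons. Lsr was at least 4-fold lower against all 3 stages and Apoc1 against P0, where 5.57%, 3.39% and 4.5% of all genes were lower against E16.5, E18.5 and P0.

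Of the acute phase protein genes, the class to which Hp belongs, those at least 4-fold higher in adult stroma were 6 of 10 against P0, 9 of 9 against E18.5 and 8 of 9 against E16.5, with median ratios of 6.89, 19.1 and 31.0, beside 6.39%, 8.66% and 9.91% of all genes at least 4-fold higher. In CARs 4 of 9 were at least 4-fold above other adult cells, beside 5.14% of all genes. Serping1, the C1 inhibitor, measured 2761 CPM there, Agt, which encodes angiotensinogen, 738 CPM and Cp, which encodes ceruloplasmin, 664 CPM. Of 12 osteolineage genes 8 were at least 4-fold higher in the adult against each perinatal stage taken alone, though not the same 8 each time. The shares of all genes were 6.39% (P0), 8.66% (E18.5) and 9.91% (E16.5). In CARs 4 of the 12 were at least 4-fold higher and 1 lower than in other adult cells. Over all 14069 genes compared there, 5.14% were higher and 1484 genes lower. Ibsp, which encodes bone sialoprotein, measured 5012 CPM in CARs, and Col1a1 1858 CPM, 0.284 times the other adult cells.

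**Figure D5:**
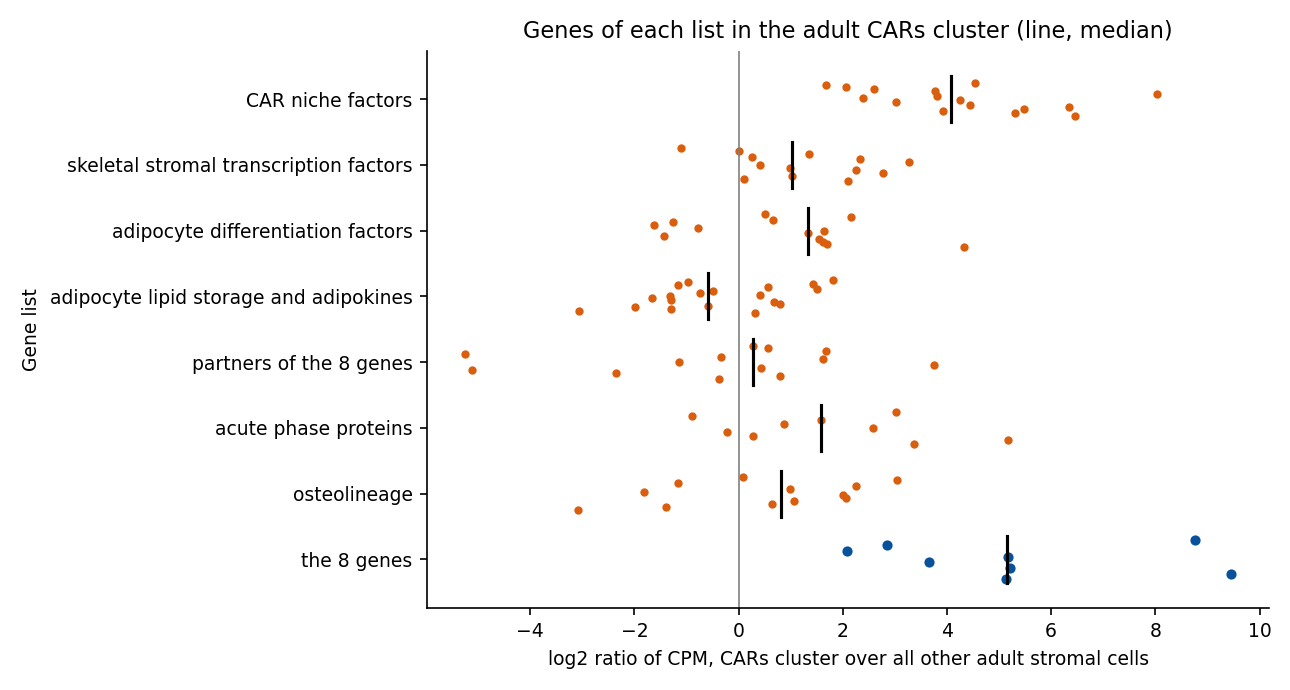
Log2 ratio of CPM in adult CARs over all other adult stromal cells for the genes of each list with at least 50 adult UMIs, without the 8 genes (orange, 1 point per gene) and for the 8 genes (blue); black lines are medians, and lists with under 5 such genes are not drawn. Niche factors lie to the right (median 17.1-fold), whereas lipid storage genes lie around 0 (median 0.669-fold). The niche factor list shares genes such as Cxcl12 with the markers of CARs.

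Over the 65 clusters, the likeness of genes was measured as Pearson's r of log2(CPM + 1), among 17006 genes. The clusters of a library share its depth and free RNA, so r is a description. Adipoq and Hp were most like each other (r = 0.925), followed for Adipoq by Kng2 (0.910) and Kng1 (0.879), and for Hp by Kng2 and Il7, where Il7 had 0.871. Lepr was most like Gas6 (0.767), Cxcl16 and Fcgrt. Lpl was most like Nnmt (0.813), Hic1 and Spry1, Ebf3 like Sept11 (0.768), Trim26 and Hic1, and Foxc1 like Dock8 (0.876), 4930523C07Rik and Lrrc1. Pparg was most like Ifi44 (0.802), Shank3 and Tmed5, and Apoe like Fbxw9 (0.723), Nfatc2ip and Acot2. Among the 8 genes, Adipoq and Ebf3 had r = 0.846 over 15 adult clusters and 0.127 over 50 perinatal ones. Adipoq reached at most 2.14 CPM in a perinatal cluster, so its perinatal r cannot show whether likeness changed. Lpl and Ebf3 had r = 0.875 over the adult clusters and 0.675 over the perinatal ones.

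Surface antibody tags were compared by the centered log-ratio (CLR) of their counts. Adult CARs had low values for antigens of mesenchymal cells, with a mean CLR of 0.528 for Sca-1 (Ly6AE), against 0.790 over all adult stroma, 0.491 for CD140a against 0.677, and 0.537 for CD73 against 0.767. CD31, an endothelial antigen, was also lower (0.496 against 0.783), and all 4 tags also stood under the library mean in the adult clusters F9, F11, C9, C10, C11, Osteo, P1 and P4. E18.5 F3ii, the perinatal cluster with the highest Lepr level at that stage, had high values instead: 4.01 for CD73 against 0.811 over the library, 2.69 for CD140a against 0.4996, and 1.66 for Sca-1 against 0.680. Cells with a Lepr UMI had a higher CD140a CLR than cells without at every perinatal stage, by 0.268 to 0.470, and by 0.0219 in the adult.

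HPs served as a reference for genes that blood cells use. Hp measured 194 CPM in adult HPs, 71.7 at P0, 61.1 at E18.5 and 19.5 and 27.2 CPM in the 2 libraries of E16.5, and reached 1195 CPM in the E16.5 cluster Neu1 and 2452 CPM in the E18.5 cluster Neu2. Perinatal HPs therefore held more Hp than perinatal stroma, at 0.624 to 1.04 CPM. Apoe measured 131 CPM in adult HPs, 607 at P0, 1390 at E18.5 and 1959 and 286 CPM in the 2 E16.5 libraries, and was highest in Mono/Mast and Mono2 clusters before adulthood. Its order over stages was thus the reverse of that in stroma from E18.5 on. Ebf3 and Foxc1 were nearly absent from HPs, with 0.118 CPM of Foxc1 and 0.0338 CPM of Ebf3 in the adult library. Adipoq had 24 UMIs in adult HPs, of which 21 lay in a cluster coded Stroma.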

How the data were processed

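Stromal and HP libraries were made by the authors with 10x Genomics 3′ chemistry and TotalSeq-A antibodies. Per the paper's methods, Cell Ranger 3.1.0 was run on mm10 and cells were filtered and clustered with Seurat 3.1.5 in R 4.0, where the cells with the most genes or UMIs were left out as putative doublets. The paper states that contaminating blood cells were taken out of the objects shown in its stromal figure, and it reports more stromal cells at each stage than the deposited table holds. Whether the same cells were left out of the deposited table is not given in the sources used here. The authors deposited raw UMI counts per gene and cell, raw antibody tag counts, and a table of cells with library, type and cluster code. Counts were used as deposited, and no other doublet caller was run.

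Cells were grouped by stage and by cluster code, and counts were summed per group. CPM carried exact Poisson 95% intervals, ratios exact conditional binomial ones and shares of cells Clopper-Pearson ones. Genes with at least 50 UMIs over both libraries were compared between stages, at a 4-fold limit. Clusters needed 50 cells. Cells were thinned to 1000 UMIs where shares were compared. Python 3.11.15, numpy 2.4.6, scipy 1.17.1 and edgeR 4.0.16 (TMM factors only) were used, and the calculations were tested on simulated data. Cluster codes were also matched to the study's marker lists, with the first 50 markers of each, and the match was used only for checks. Named were the 8 genes, the 3 most like genes of each, and, for each pathway list, the genes highest in the adult cluster of highest Lepr level or those a count of 5 or fewer rests on. Ebf2, Foxc2, Plin1, Gpihbp1, Stat3, Plin4, Cfd, Nnat and the genes shown for single cells were chosen after their values were seen. The 8 genes and the lists were chosen with earlier results of these data known. Promoter sequences are from RefSeq (GRCm38.p6).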

Additional observations from a re-analysis of the deposited data

How the results depend on the processing

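With 1 stromal library per stage, depth sets counting error only and the variation between mice is unknown. The 301 alternative values are levels, counts and shares, and they were not checked for a change of direction. One ratio did turn: Ebf3 in the adult was 1.61 times its P0 level, and 0.748 times without adult CARs. The count of the 8 genes at least 4-fold higher in the adult than at E16.5 went from 5 to 3 with an 8-fold limit and to 3 without adult CARs (an alternative chosen after seeing the data). Against P0 it went from 4 to 2 with an 8-fold limit, without adult CARs, with a denominator without mitochondrial, ribosomal protein and globin genes and Gm42418, and with TMM factors. Counts also rose: with a 2-fold limit they were 7, 6 and 6 against E16.5, E18.5 and P0, without UD clusters 6 against E16.5 and 5 against P0, with means over cells 6 against E16.5 and 6 against E18.5, and without cells holding 3 UMIs of the blood cell list 5 against E18.5, where against P0 it was 3. Without thinning, the share of cells with at least 4 of the 8 genes was 11.0% in the adult, 2.23% at P0, 2.09% at E18.5 and 1.12% at E16.5. With at least 3 genes it was 0.119% at P0 and 5.66% in the adult. The adult share was 5.41% after thinning to 2000 UMIs, 3.55% with at least 5 genes, 3.98% with at least 3 of the 6 genes other than Apoe and Lpl, and 5.41% without cells holding 3 UMIs of the blood cell list. Of the 24 most like genes, 9 were shared with Spearman's rho, 3 over adult clusters only and 11 with a pseudocount of 10, so those lists depend on the measure. As a mean over cells in place of a sum, the levels of the 8 genes were 0.735 to 2.00 times those reported. No paired analysis was possible because each stage had 1 stromal library and no result comes from a test.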
